A study of Mus musculus with 2 samples.

Results

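The mouse miRNAs from miR-1000 to miR-2999 were almost all below the detection limit in Tif1b KO and WT stem and progenitor cells. The set holds every mouse miRNA on the array whose name carries a number in this range, apart from miR-1187, miR-1193, miR-1197 and miR-1224. It has 120 of the 1247 mouse miRNAs, with 251 probes and 4800 spots on each array. Of the 120, only miR-1949 was measured on both arrays and miR-1895 was measured on the WT array alone. The other 118 were measured on neither.

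The KO sample came from cells with a CreERT transgene and Tif1bf/f alleles, and the WT sample from cells with the same transgene and Tif1bw/w alleles, both on the C57/BL6 background. Tif1b (Trim28) is recruited by zinc finger proteins to DNA, where it brings in repressive chromatin enzymes. Both samples were sorted from adult bone marrow as c-Kit+ Sca1+ Lineage- cells, a fraction of stem cells and early progenitors. The sources used here do not give whether, when and how the floxed alleles were recombined, and the array has no probe for Tif1b, so its loss was not checked. For each genotype 100 ng of total RNA was labelled with Cyanine 3 and hybridised to 1 Agilent miRNA array. With 1 array per genotype no test between genotypes was possible. All values below describe these arrays, and every SD is taken over spots of 1 array and is technical.

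A miRNA is a short RNA of about the length of the sequences printed below, cut from a hairpin by Drosha with its partner Dgcr8 and then by Dicer. It lowers the output of target mRNAs, which it finds mainly through its seed, bases 2 to 8. Numbers are given in order of discovery, so high numbers mostly went to miRNAs found later, often by sequencing and at low abundance. Many such hairpins lie within introns of other genes and depend on the transcription of those hosts.

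The measured miR-1895 and the unmeasured members nearest to detection are shown with their mature RefSeq sequence on GRCm38.p6, with the seed in capitals. After miR-1895, miR-1892 and miR-1904 are shown for the brightest WT probes among the unmeasured members, and miR-1943-3p had the brightest unmeasured KO probe.
miR-1895: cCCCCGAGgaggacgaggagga
miR-1904: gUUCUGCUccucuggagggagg
miR-1892: aUUUGGGGacgggagggaggau
miR-1943-3p: cAGGUGCCagcuccucccuuc
The mature miR-1895 lies on the minus strand at chr3:134240515-134240536, within Cxxc4 but on the opposite strand to it. Cxxc4 encodes a CXXC zinc finger protein that restrains Wnt signalling. Mature miR-1904 lies on the plus strand at chr13:109903819-109903840, within Pde4d and on its strand. Pde4d encodes a phosphodiesterase that degrades cyclic AMP. Mature miR-1892 lies on the minus strand at chr12:54645943-54645964 within Sptssa, a subunit of serine palmitoyltransferase. Mature miR-1943-3p lies on the minus strand at chr15:79375236-79375256 within Tmem184b.

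Each miRNA has a ladder of probes that are complementary to its 3′ end and differ by single bases. All 187 probes of the 90 members with a mature sequence in RefSeq matched that sequence in full and at its 3′ end. Of these probes 105 reached into the seed and 3 covered all of it. The ladders of miR-1895 and miR-1904 are printed to show how little their probes differ, with the base beyond the shorter probe in capitals.
miR-1895, shorter probe: tcctcctcgtcctc
miR-1895, longer probe: tcctcctcgtcctcC
miR-1904, shorter probe: cctccctccagag
miR-1904, longer probe: cctccctccagagG

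The probes measured on both arrays were dimmer on KO at their 75th percentile, with scaling factors of 213 for KO and 487 for WT. These factors are the 75th percentile of signal over the 113 probes measured on both arrays. Negative control probes were not dimmer on KO, with medians of 8.45 on KO and 7.43 on WT. The 75th percentile over all probes of other miRNAs was 1.24 on KO and 1.37 on WT. A probe was called measured when more than 50% of its spots, without outlier spots, were marked well above background by the scanner software. By this rule 78 of all 1247 miRNAs were measured on KO and 100 on WT. The sorted proteins cannot be read on a miRNA array. Of 6 miRNAs taken as markers of stem and progenitor cells with probes under their names, 3 were measured on both arrays, namely miR-10a-5p, miR-130a-3p and miR-196b-5p. The others, miR-125a-5p, miR-125b-5p and miR-99b-5p, were measured on neither. A further marker on this list, miR-126a-3p, had no probe under that name. Neither erythroid marker (miR-451a, miR-144-3p) nor the lymphocyte marker miR-150-5p was measured on either array. miR-142-3p, of all blood lineages, was measured on both arrays and miR-142-5p on WT only. The granulocyte and monocyte marker miR-223-3p was measured on both, with its brightest probe at 63.6 on KO and 3726 on WT. The part of any difference in cell composition in the values below was not tested.

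The share of members measured was 0.833% on KO (1 of 120) and 1.67% on WT (2 of 120). For all 1127 other miRNAs it was 6.83% on KO (77) and 8.70% on WT (98). Among miR-1 to miR-999 it was 6.56% on KO (51 of 778) and 9.13% on WT (71 of 778). Later numbers stood closer to that level than the members did. Of miR-3000 to miR-3999, 8 of 145 were measured on each array (5.52%). From miR-5000 upward 9 of 177 were measured on KO (5.08%) and 10 of 177 on WT (5.65%). The 4 left-out names bear on the count: of their 7 miRNAs, miR-1187 and miR-1224-5p were measured on both arrays. With these 7 included, 3 miRNAs were measured on KO (2.36%) and 4 on WT (3.15%).

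**Figure D1:**
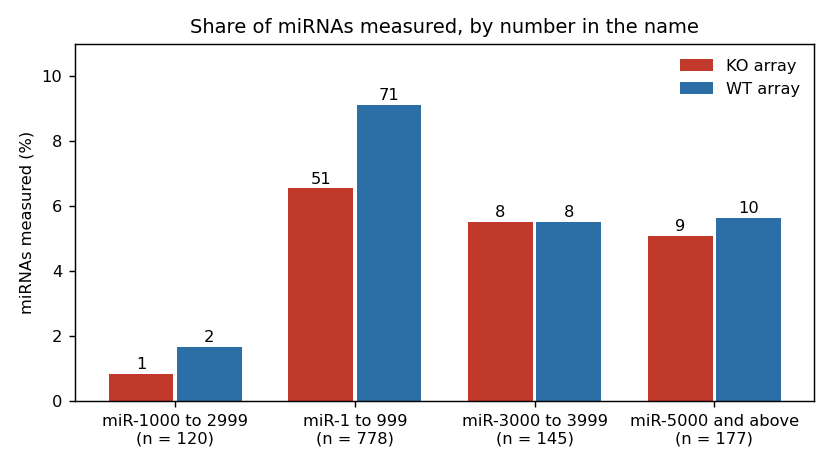
Percent of miRNAs measured (y axis, from 0) for 4 ranges of the number in the name, with the KO bar left of the WT bar and the number of measured miRNAs above each bar. The members reach 1 of 120 on KO and 2 of 120 on WT, the lowest pair of the 4 ranges.

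Within the set, all 29 members below miR-1800 and all 5 from miR-2000 upward were unmeasured. From miR-1800 to miR-1899, 1 of 16 was measured, on WT only, and from miR-1900 to miR-1999, 1 of 70 was measured, on both arrays. Both arms of 30 hairpins had probes under matching names, and none of these 60 miRNAs was measured. The arms of Mir1982, named miR-1982-5p and miR-1982.2-3p, are not in this count and were not measured either. The 2 measured members carry no arm in their names.

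Once outlier spots were left out, spots well above background were as concentrated as the calls. On this count 17 member spots were well above background on KO and 41 on WT. All 17 on KO belonged to miR-1949. On WT 39 belonged to miR-1949 and miR-1895 and the other 2 to miR-1904. Of all member spots, outliers included, 0.625% were well above background on KO and 1.42% on WT, against 5.50% on KO and 7.19% on WT for the other miRNAs. With outliers included, 17 of 30 such member spots on KO and 42 of 68 on WT belonged to miR-1949 and miR-1895. Outlier spots made up 4.65% of member spots on KO and 5.83% on WT.

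The signals of the unmeasured members mostly lay below those of the negative control probes. Processed signals are intensities after subtraction of a fitted background surface, so they centre near 0 and can be negative. The 250 member probes not measured on KO had a median of -2.96, from -10.8 to 9.36. The 249 not measured on WT had a median of -2.67, from -9.93 to 16.1. The 7 kinds of negative control probe averaged from 5.05 to 9.89 on KO and from 5.07 to 8.86 on WT. Of the 251 member probes, 1 was brighter than the brightest negative control on KO (0.398%) and 7 on WT (2.79%). Of the probes of other miRNAs, 6.87% were brighter than it on KO and 7.85% on WT. The 5 members above it on WT were miR-1949, miR-1895, miR-1892, miR-1904 and miR-1839-3p, and the 1 on KO was miR-1949.

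**Figure D2:**
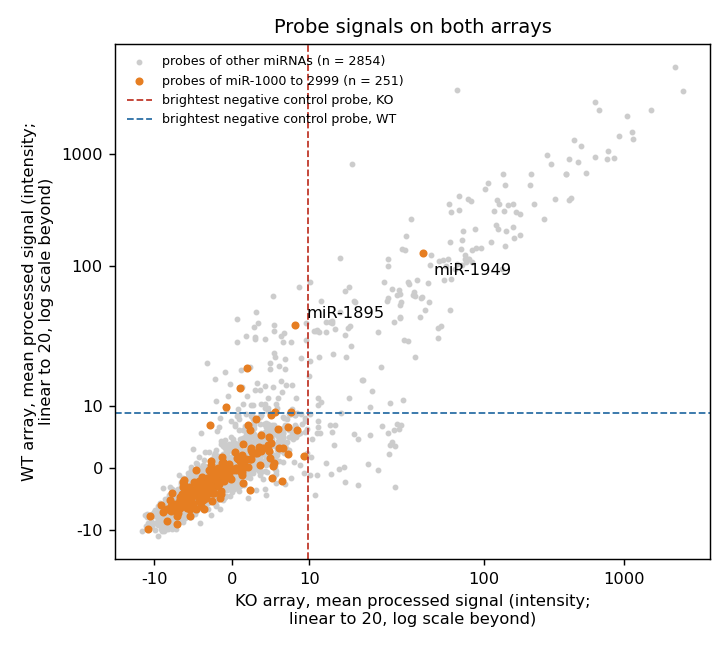
Mean processed signal of each probe on the KO array (x axis) and the WT array (y axis), both linear up to 20 and logarithmic beyond, with members in orange, other miRNAs in grey and the brightest negative control of each array as a dashed line. Most members lie below both lines, and the measured probes of miR-1949 and miR-1895 stand apart from them.

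These dim signals were still ordered alike on both arrays. Over the 249 member probes measured on neither array, Spearman's rho between KO and WT signals was 0.87, against 0.89 over the 2687 such probes of other miRNAs. This describes probes that share sequence and slide and is no measure of expression.

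miR-1949 was the only member with a KO minus WT difference that could be measured. Its 18-base probe averaged 36.3 ± 9.53 on KO (SD over 19 spots) and 129 ± 24.0 on WT (SD over 16 spots). KO spots ran from 14.3 to 47.9 with a median of 37.97, and WT spots from 69.2 to 166 with a median of 128. These ranges did not overlap before scaling. The outlier spots left out were 1 on KO at 4.41 and 4 on WT between 2.03 and 56.8, which reach into the KO range. In samples of many cells, fewer cells of a type and less RNA per cell cannot be told apart. On KO 17 of the 19 spots were well above background and on WT all 16 were. Among the 72 miRNAs measured on both arrays its brightest probe ranked 61 on KO and 47 on WT, counted from the brightest, though ranks compare different probes.

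After scaling, the KO minus WT difference of miR-1949 was -0.63 on the log2 scale, 1.55-fold lower on KO. The spot SD over the 16 positions without an outlier on either array was 0.48. The median over all 72 miRNAs was 0.30, and relative to it miR-1949 was at -0.94, or 1.92-fold lower. It had the 12th lowest difference of the 72. miR-1949, the only member with a difference to call, did not pass 2-fold in either direction. Of the 72 miRNAs 13.9% were at least 2-fold higher on KO and 13.9% at least 2-fold lower. A single member gives no share to set against these. After scaling, 15 of those 16 positions were lower on KO. The size rests on the scaling: without it the difference was -1.83, or 3.55-fold lower on KO, where the median of all 72 was -0.89. With another background correction, limma's normexp with an offset of 50, it was 0.034, so its sign turned. The median of all miRNAs was then 0.46, so miR-1949 still lay below the median. The offset of 50 exceeds the KO signal of its probe, 36.3, and the part of the offset was not tested.

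The 17-base probe of miR-1949 was not measured on either array. It averaged 1.14 ± 3.01 on KO and 12.8 ± 9.15 on WT (SD, 20 spots each), with 0 spots well above background on KO and 4 on WT. No ratio of the longer to the shorter probe is given, since the shorter was not well above background. A brighter longer probe was common on these arrays. Of the pairs of probes of 1 miRNA that differ by 1 base and hold a probe as bright as the lowest measured one, the longer was the brighter in 75 of 80 on KO and in 103 of 108 on WT. Of the pairs whose shorter probe lay above 0, 0 of 78 on KO and 14 of 105 on WT had a larger ratio than miR-1949. These ranks divide by its shorter probe, whose KO mean was smaller than its spot SD. They are therefore not read as a trait of miR-1949. The difference of miR-1949 rests on its longer probe alone.

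miR-1895 was measured on the WT array only. Its 15-base probe averaged 8.23 ± 3.85 on KO (SD over 19 spots) and 29.6 ± 5.67 on WT (SD over 17 spots). KO spots ran from 2.004 to 17.9 and WT spots from 17.6 to 38.6, so the ranges met at their edges. Over the 16 positions without an outlier on either array, KO was lower at 16 before scaling and at 13 after it. On KO 0 of 19 spots were well above background and on WT 15 of 17 were. The 14-base probe averaged 1.97 ± 4.60 on KO and 16.1 ± 3.88 on WT (SD, 20 spots each), with 0 spots well above background on KO and 4 on WT.

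No fold change can be given for miR-1895. On the scale of the KO array, set by the scaling factors, its WT signal of 29.6 corresponds to 12.9. This is below the lowest measured KO probe of any miRNA at 21.1. If this scaling holds, a miR-1895 level on KO equal to that on WT would not have been measured. Without scaling the bound was at least 1.40-fold lower on KO. In all, 28 miRNAs were measured on WT only, and for 6 of them the scaled signal exceeded the KO limit.

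**Figure D3:**
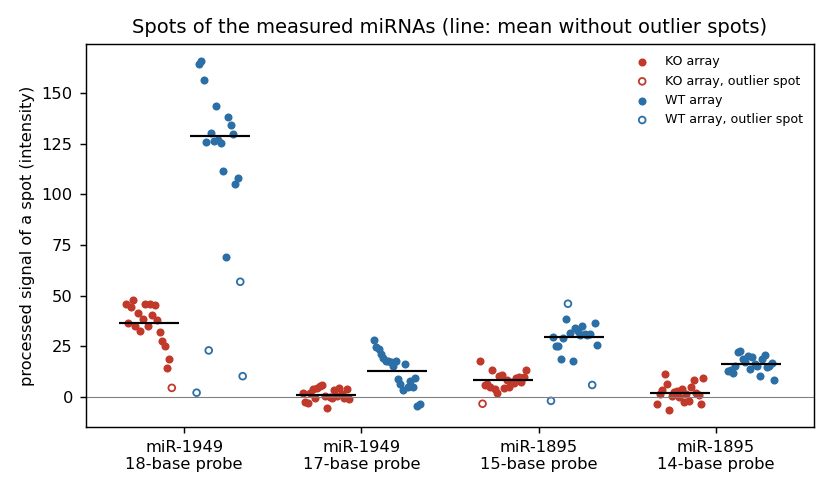
Processed signal of every spot (y axis, intensity) for both probes of miR-1949 and miR-1895, with KO left of WT, outlier spots as open circles and the mean without outliers as a line. For the longer probe of miR-1949 all KO spots lie below 50 and the WT mean lies at 129. For miR-1895 the KO spots of the longer probe lie mostly below the WT spots.

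No member probe lay close to the threshold of 50% of spots. On KO the share of spots well above background was 89.5% for the measured probe of miR-1949 and 0% for every other member probe. On WT it was 100% and 88.2% for the measured probes of miR-1949 and miR-1895, then 20% for their shorter probes and 10.5% for miR-1904. The 13-base probe of miR-1904 averaged 5.62 ± 4.66 on KO (SD over 20 spots, 0 well above background) and 8.91 ± 6.59 on WT (SD over 19 spots, 2 well above background).

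The other members nearest to detection had 0 spots well above background and are given by signal alone. The best probe of miR-1892 averaged -0.67 ± 3.02 on KO and 9.82 ± 4.93 on WT. For miR-1943-3p the order was the other way, with 9.36 ± 5.31 on KO and 1.83 ± 2.32 on WT. miR-1839-3p averaged 7.72 ± 2.22 on KO and 8.91 ± 3.11 on WT, and miR-1839-5p averaged 5.14 ± 3.75 on KO and 8.48 ± 3.70 on WT. For miR-2861 the means were 8.38 ± 6.29 on KO and 6.09 ± 4.41 on WT. The probe of miR-1249-3p averaged 7.31 ± 4.58 on KO and 6.58 ± 4.66 on WT. miR-1196-5p was at 7.31 ± 3.73 on KO and 2.18 ± 3.57 on WT. miR-1947-3p was at 6.67 ± 3.73 on KO and 3.16 ± 1.42 on WT, and miR-1897-5p at 2.10 ± 3.30 on KO and 6.85 ± 4.28 on WT (SD over 11 to 20 spots for all of these). All of these means lay under the lowest measured probe of each array, 21.1 on KO and 17.7 on WT, so no fold is given. Over all 118 unmeasured members, the brightest probe of each had a median of -2.34 on KO and -1.80 on WT.

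Members of named regions gave no measured value. The imprinted Dlk1-Dio3 region, expressed from the maternal chromosome for its noncoding RNAs, held 5 members. Their probes lay between -6.71 and 5.39 on KO and between -6.49 and 0.234 on WT. Of these, miR-1188-5p and miR-1188-3p lie within Rian, an imprinted noncoding RNA. For miR-1906, which matches 2 RefSeq loci, the host found was Meg3, another imprinted noncoding RNA. The others were miR-1247-5p and miR-1247-3p. miR-1306-5p and miR-1306-3p come from a hairpin within Dgcr8, whose protein recognises primary miRNAs for Drosha. Their probes lay between -4.66 and -2.04 on KO and between -4.57 and 0.460 on WT.

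For small RNA overlaps, both arms of miR-1839 were analysed and miR-1291 was not analysed here. The miR-1839 probes lay between -4.33 and 7.72 on KO and between -3.10 and 8.91 on WT. In RefSeq, Mir1839 lies on chr7:81529916-81529988 within the noncoding gene 2900076A07Rik. Mir1843b lies within Scarna3a, a guide RNA of Cajal bodies, and within the protein-coding Cop1. The probes of miR-1843b-5p and miR-1843b-3p lay between -1.87 and 1.30 on KO and between -0.64 and 0.0045 on WT.

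Some members share a seed with miRNAs measured in these cells. The 90 members with a mature sequence had 90 different seeds, and 7 of those occurred in another miRNA on the array. In 2 cases the other miRNA was measured. They are printed with the seed in capitals to show how far each pair runs together.
miR-1961: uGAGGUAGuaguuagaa
let-7a-5p: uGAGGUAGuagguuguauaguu
miR-1928: aGCUACAUugccagcuc
miR-221-3p: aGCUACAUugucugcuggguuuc
miR-1961 shares its first 11 of 17 bases with let-7a-5p, a family that favours differentiation. Mature miR-1961 lies at chr5:92788465-92788481 on the minus strand, within Shroom3 on the opposite strand, and miR-1928 at chr1:74206562-74206578 on the minus strand, outside annotated genes. The longer probe of miR-1961 averaged -3.68 ± 3.75 on KO (SD over 18 spots) and -5.20 ± 3.35 on WT (SD over 19 spots). The longer probe of let-7a-5p averaged 1170 ± 135 on KO (SD over 16 spots) and 1364 ± 575 on WT (SD over 20 spots). miR-1928 shares its first 10 of 17 bases with miR-221-3p, a miRNA known to target Kit. Its longer probe averaged -0.67 ± 1.96 on KO and -0.77 ± 3.00 on WT (SD over 19 spots each). The longer probe of miR-221-3p averaged 68.0 ± 10.5 on KO (SD over 19 spots) and 140 ± 23.8 on WT (SD over 16 spots). Signals of different probes are not comparable as levels. On both arrays the members' probes were not well above background, whereas the longer probes of let-7a-5p and miR-221-3p were. Not every seed partner was measured. Of the 10 other miRNAs with the seed of miR-1961, let-7e-5p and let-7k were not measured on either array. miR-222-3p, which shares the seed of miR-1928, had 0 spots well above background on both.

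Higher GC went with slightly lower signal among member probes. Member probes held 57.1% G and C in the median, from 27.8% to 100%, against 50% for other miRNAs, and had a median length of 15 bases against 16. Across the 251 member probes, Spearman's rho between GC and signal was -0.15 on KO and -0.22 on WT, and Pearson's r was -0.10 on KO and -0.11 on WT. Across the 2854 other probes, rho was -0.42 on KO and -0.43 on WT. Probes share an array and their bases, and GC ran against length (rho -0.90 over member probes), so these coefficients are descriptions. For length itself, rho over member probes was 0.25 on KO and 0.32 on WT.

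The measured probes lay within the GC range of the unmeasured ones. The measured probe of miR-1949 had 44.4% GC and that of miR-1895 66.7%. By bands, 17 member probes had up to 40% GC with median signals of -1.38 on KO and -0.55 on WT. The 84 with over 60% had medians of -3.82 on KO and -3.65 on WT. Among other miRNAs the share of probes measured was 4.70% on KO and 6.54% on WT up to 40% GC, and 3.85% on KO and 4.69% on WT over 60%. In the band of 40 to 50%, which held 72 member probes, 1.39% of member probes and 5.54% of the others were measured on KO, and 1.39% of member probes and 6.92% of the others on WT.

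**Figure D4:**
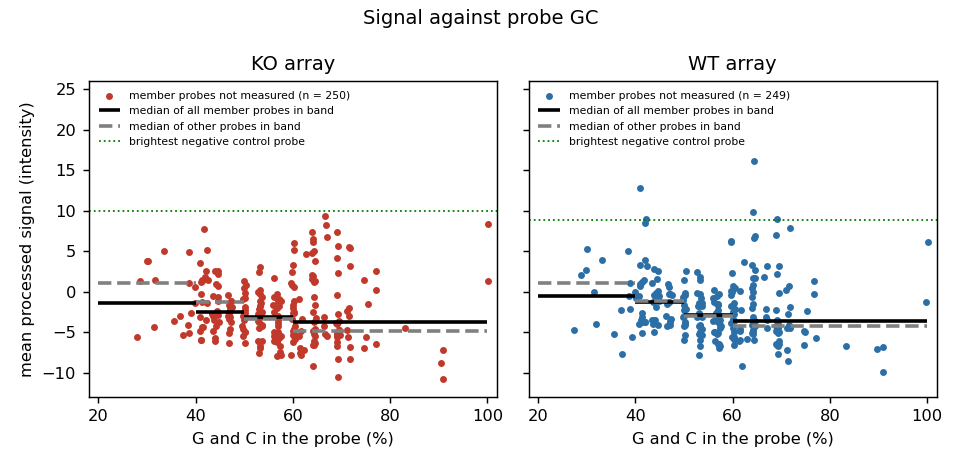
Mean processed signal (y axis, intensity) against percent G and C (x axis) for member probes not measured, KO left and WT right. Solid black lines are medians over all member probes per GC band, dashed grey lines those of other probes, and the dotted line is the brightest negative control; member medians fall to -3.82 on KO and -3.65 on WT in the band over 60%.

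Both measured members lay within other genes, as did most members. Mir1949 lies within Snhg4, a long noncoding host gene of small nucleolar RNAs, on chromosome 18, and its sequence is not printed. RefSeq genes of GRCm38.p6 matched 109 of the 120 members, 90 by mature name and 19 by gene symbol. Of these 92 (84.4%) lay within another gene and 17 outside. Of 927 other miRNAs, matched by mature name only, 69.9% lay within a gene, so the 2 shares rest on unlike matching. For 82 members a host was protein coding and for 13 it was a long noncoding RNA. On KO 1 of 92 within genes was measured and 0 of 17 outside. On WT 2 of 92 within genes were measured and 0 of 17 outside. Among other miRNAs the shares were 6.79% within genes and 6.09% outside on KO, and 8.80% within genes and 8.60% outside on WT. The median of the brightest probe was -2.05 within genes and -2.24 outside on KO, and -1.83 within genes and -1.08 outside on WT.

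A host transcript can carry a hairpin only where both lie on the same strand. For 61 members every host lay on the same strand, and 0 of these were measured on either array. miR-1895 was 1 of 5 whose only host lay on the opposite strand. For Mir1949 and Snhg4 the strand was not compared. The array does not measure host transcripts, so host levels in these cells are unknown here.

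The following hosts were picked for their function and after the members' values were seen. Htr2c, a serotonin receptor gene on the X chromosome, holds 3 hairpins with 6 members (miR-1264, miR-1298 and miR-1912, both arms). Their 13 probes lay between -5.71 and 5.06 on KO and between -5.02 and 4.95 on WT. miR-1954 lies within Eng, which encodes endoglin, a coreceptor of the TGF-beta family. Its 2 probes were at -6.10 and -4.20 on KO and at -5.43 and -4.21 on WT. miR-1929-5p and miR-1929-3p lie within Atg5, which is needed for autophagy, and their probes lay between -5.40 and -1.39 on KO and between -5.60 and -0.41 on WT. miR-1956 lies within Eif4e, the cap-binding factor of translation, and its probes lay between -9.14 and -7.88 on KO and between -6.13 and -6.04 on WT. miR-1982 lies within Oaz1, the antizyme of ornithine decarboxylase, and its probes lay between -1.54 and 3.06 on KO and between -4.91 and 2.44 on WT. None of these members was measured.

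The mapping positions in the array files needed a correction before use. Per the file headers the design refers to an older build, yet all 96 plus-strand member probes that could be compared lay at their RefSeq mature position on GRCm38.p6. All 77 minus-strand member probes lay instead at the mirror image of that position within the hairpin. Among other miRNAs the same held for 899 minus-strand probes, with 2 that fitted both positions. RefSeq positions were right by 2 checks: they matched the place of the mature sequence in the hairpin for 755 of 755 minus-strand entries, and the 5′ arm lay at the higher coordinate in 309 of 309 minus-strand hairpins with both arms. Mirrored positions remain inside the hairpin, so host genes are not affected, but they name the wrong arm, and RefSeq positions are given throughout.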

How the data were processed

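Members and lists were chosen with earlier results of these data known. Each array's file, as deposited, gives linear intensities per spot. The submitters' processing notes name Agilent Feature Extraction 10.7.3. Per the file headers, an additive spatial trend was subtracted and no normalization between arrays is recorded. The authors' deposited value table also holds intensities, and all 1268 rows of both columns equalled the software's total gene signal within 0.1%. The 0 or 1 flags for outlier spots, spots well above background and detected genes are other values that the authors deposited in the array files.

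Processed signals were averaged per probe without outlier spots, divided by each array's 75th percentile over the probes that both arrays measured, then log2 transformed. A miRNA's difference, KO minus WT, is the median of the differences of those probes. For a miRNA measured on 1 array, a bound was computed against the lowest measured signal of the other. Named miRNAs are all measured members, the 10 nearest to detection and those of the fixed lists. Sequences and positions are from RefSeq (GRCm38.p6). The procedure was run on simulated data without outlier spots, with a fixed signal cut in place of the software's flag. Differences were taken there relative to their median, so the simulation could not check the scaling. Alternatives covered scaling, background correction (limma 3.58.1, normexp with offset 50), signal summary, filter, spot and probe summaries and outlier spots. Scripts ran in R 4.3.3 and in Python 3.11.15 with scipy 1.17.1, pandas 2.3.3 and numpy 2.4.6. The number of arrays limits the precision.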

Additional observations from a re-analysis of the deposited data

How the results depend on the processing

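Results were recomputed under 13 alternatives fixed with the design and 2 chosen after seeing the data (spots paired by position, leaving out array rows above 320). The counts of measured members were 1 on KO, 2 on WT and 1 on both arrays under each alternative that kept a filter, the total gene signal and the value table included. Alternatives of scaling, background correction, spot median and brightest probe leave the flags behind these counts as they are, so they could not change them. Only the other filter shares, outlier spots kept, the total gene signal and the value table could have done so. With no filter and a floor all 120 counted as measured by construction. The difference of miR-1949, -0.63 as reported, was -1.73 with the 75th percentile over all probes, -1.83 without scaling and 0.034 with normexp, where its sign turned. With normexp it still lay below the median of all miRNAs, 0.46. It lay between -0.78 and -0.29 under the other alternatives, with -0.65 for spots paired by position and -0.52 without rows above 320. It was at least 2-fold lower on KO (a count of 1, against 0 as reported) with the percentile over all probes and without scaling. The bound of miR-1895, 0.613 and thus no fold, was 1.31-fold with the percentile over all probes, 1.40-fold without scaling and 1.92-fold by total gene signal or the value table. The count of all miRNAs at least 2-fold higher on KO was 10 as reported, and likewise 10 were lower. Without scaling 1 was higher and 32 lower, with the percentile over all probes 1 and 31, by the value table or total gene signal 29 and 5, with normexp 7 and 1, and with a floor 4 and 8. The cause of these shifts was not tested. Rank correlations with GC shifted by less than 0.1. Scaling and the filter shares could not move them, since the ranks over all member probes stay the same. They were not computed on total gene signals or the value table, which give values per miRNA and not per probe. No paired analysis was possible because the labels give a single array to each genotype. Signal over background limits every statement on the 118 unmeasured members: they were not well above background, which does not show that they are absent.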

Other observations

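The share of pyrimidines (C and T) in a probe moved with the signal of the unmeasured member probes more than GC did. This pattern was looked at after the values were seen. Over the 249 member probes measured on neither array, Spearman's rho with pyrimidine share was -0.46 on KO and -0.38 on WT, and over the 2687 such probes of other miRNAs it was -0.55 on KO and -0.49 on WT. For GC over the same probes rho was -0.15 on KO and -0.22 on WT for members, and -0.46 on KO and -0.47 on WT for other miRNAs. For probe length it was 0.25 on KO and 0.31 on WT for members. For other miRNAs length had the largest coefficients, 0.60 on KO and 0.63 on WT. The coefficients describe probes that share an array and base composition. The 22 purine-rich member probes, with at most 25% pyrimidines, had median signals of 4.37 on KO and 1.72 on WT. The 136 purine-rich probes of other miRNAs had medians of 2.96 on KO and 2.39 on WT. The 15 member probes with over 75% pyrimidines had medians of -0.67 on KO and -0.44 on WT, and the 92 such probes of other miRNAs -6.14 on KO and -5.21 on WT. The 212 member probes between these bands had medians of -3.42 on KO and -3.17 on WT, below both outer bands, so the relation over member probes was not one way. The 2459 other probes between the bands had medians of -2.46 on KO and -2.14 on WT, between their outer bands. The KO minus WT signal before scaling fell with pyrimidine share. Over the unmeasured member probes rho was -0.28, with medians of 1.01 up to 25%, -0.43 between the bands and -1.97 over 75%. Over such probes of other miRNAs rho was -0.19, with medians of 0.46, -0.31 and -0.93. The measured probe of miR-1895 is 93.3% pyrimidine. Of the probes named above as nearest to detection, those of miR-1943-3p, miR-1196-5p, miR-1947-3p, miR-2861 and miR-1249-3p had higher mean signals on KO, and those of miR-1892, miR-1897-5p, miR-1904, miR-1839-5p and miR-1839-3p on WT. Among these named probes the order did not follow pyrimidine share throughout: the probe of miR-1249-3p held 7.14% pyrimidines, that of miR-2861 70% and that of miR-1839-3p 36.8%. All of them lay below the lowest measured probe on both arrays, and neither the part of base composition nor that of the arrays was tested.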
